A study of Mus musculus with 4 samples.

Results

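Open chromatin was examined at the genes of 8 components of transforming growth factor-β (TGF-β) signalling in lymph node (LN) Treg cells: the receptors Tgfbr1, Tgfbr2 and Tgfbr3, the receptor-regulated SMADs Smad2 and Smad3, the inhibitory Smad7, and the corepressors Ski and Skil. Every peak that overlapped the body of one of these genes (GENCODE, GRCm38, the assembly also named mm10) or 20 kb on either side was taken, and peaks that overlapped by at least 1 bp were joined into regions. This gave 145 regions of the 272233 found in the genome. ATAC-seq, in which Tn5 transposase inserts adapters into accessible DNA, had been run on 50000 sorted Treg cells per library. The 4 libraries came from 2 WT and 2 Il2ra mut/mut mice, all C57BL/6 females of 6-8 weeks, unstimulated, and all carrying the Foxp3 Rfp/Rfp reporter that served to sort the RFP+ cells. Il2ra mut/mut mice are homozygous for a point mutation in the gene of the IL-2 receptor α chain (CD25) that lowers IL-2 signalling. The mutation arose in a Ccr2-deficient colony and was bred away from that deletion, so it and other variants of the colony cannot be told apart. The comparison asks where reduced IL-2 signals go with a different chromatin landscape in Treg cells.

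TGF-β binds a complex of type I (Tgfbr1) and type II (Tgfbr2) receptor kinases, and the type III receptor Tgfbr3, also called betaglycan, is a coreceptor without kinase activity that presents ligand to them. The active complex phosphorylates Smad2 and Smad3, which join Smad4 and enter the nucleus to regulate transcription. Smad7 blocks the receptors, whereas Ski and Skil (SnoN) hold SMAD complexes in a repressed state. In T cells this pathway restrains activation, and it takes part in the induction of Foxp3 and of the integrin CD103.

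The regions that carry the results below are shown first. A region is named by its gene and by the distance in kb of its summit, the point of highest signal, from the gene's start site, counted along transcription. The first 3 sequences lie in introns of Tgfbr3 and belong to regions called in both WT libraries and in neither Il2ra mut/mut library. The fourth is the strongest Tgfbr3 region that all 4 libraries shared, and the last 3 are the strongest shared intronic regions of Tgfbr2, Smad3 and Ski. Each is the 300 bases around the summit, read 5′ to 3′ on the plus strand of GRCm38 (RefSeq), and capitals mark matches to the motifs described next.
Tgfbr3 +10.2 kb, chr5:107279306-107279605: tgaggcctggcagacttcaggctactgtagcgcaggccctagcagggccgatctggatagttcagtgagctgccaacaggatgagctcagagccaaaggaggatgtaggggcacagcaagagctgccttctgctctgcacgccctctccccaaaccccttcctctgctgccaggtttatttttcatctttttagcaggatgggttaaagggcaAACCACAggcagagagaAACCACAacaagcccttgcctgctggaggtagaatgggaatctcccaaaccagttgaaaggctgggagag
Tgfbr3 +29.9 kb, chr5:107259625-107259924: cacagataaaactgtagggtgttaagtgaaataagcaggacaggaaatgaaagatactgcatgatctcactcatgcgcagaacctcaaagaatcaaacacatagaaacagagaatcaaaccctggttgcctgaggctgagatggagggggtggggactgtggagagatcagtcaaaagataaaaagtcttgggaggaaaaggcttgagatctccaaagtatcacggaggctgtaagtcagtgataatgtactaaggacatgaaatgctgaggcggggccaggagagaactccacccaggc
Tgfbr3 +125.4 kb, chr5:107164080-107164379: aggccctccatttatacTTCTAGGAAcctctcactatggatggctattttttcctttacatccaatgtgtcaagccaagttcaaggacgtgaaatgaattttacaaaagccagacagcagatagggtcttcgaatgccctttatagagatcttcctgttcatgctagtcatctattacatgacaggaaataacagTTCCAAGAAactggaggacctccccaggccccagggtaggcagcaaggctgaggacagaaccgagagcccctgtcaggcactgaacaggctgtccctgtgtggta
Tgfbr3 +24.6 kb, chr5:107264924-107265223: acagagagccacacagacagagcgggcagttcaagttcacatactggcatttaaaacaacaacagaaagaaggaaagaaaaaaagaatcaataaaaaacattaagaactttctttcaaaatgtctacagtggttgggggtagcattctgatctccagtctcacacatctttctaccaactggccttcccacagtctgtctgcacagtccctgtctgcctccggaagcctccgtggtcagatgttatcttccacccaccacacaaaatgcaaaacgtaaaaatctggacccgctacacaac
Tgfbr2 +52.2 kb, chr9:116122993-116123292: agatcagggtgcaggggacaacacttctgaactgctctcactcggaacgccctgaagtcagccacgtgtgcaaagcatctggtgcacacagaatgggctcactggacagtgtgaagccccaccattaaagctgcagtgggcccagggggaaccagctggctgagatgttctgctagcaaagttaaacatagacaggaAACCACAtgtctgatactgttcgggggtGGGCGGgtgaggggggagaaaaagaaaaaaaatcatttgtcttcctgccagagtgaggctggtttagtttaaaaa
Smad3 +51.4 kb, chr9:63706428-63706727: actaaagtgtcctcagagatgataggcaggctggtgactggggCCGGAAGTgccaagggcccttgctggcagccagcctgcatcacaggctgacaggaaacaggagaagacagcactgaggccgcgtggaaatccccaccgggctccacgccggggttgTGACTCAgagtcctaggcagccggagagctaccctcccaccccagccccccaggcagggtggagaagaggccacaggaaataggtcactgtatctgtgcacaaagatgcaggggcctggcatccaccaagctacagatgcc
Ski +21.7 kb, chr4:155200759-155201058: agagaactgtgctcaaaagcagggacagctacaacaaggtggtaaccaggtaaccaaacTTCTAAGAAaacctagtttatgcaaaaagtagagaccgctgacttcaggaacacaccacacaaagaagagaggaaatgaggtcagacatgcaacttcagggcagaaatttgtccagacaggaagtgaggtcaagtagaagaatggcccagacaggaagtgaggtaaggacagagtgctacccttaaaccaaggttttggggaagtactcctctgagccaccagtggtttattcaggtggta

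The motifs, searched on both strands in the 300 bases around each summit, were the SMAD palindrome GTCTAGAC, the GC-rich SMAD sequence GGCGCC, AP-1 (TGANTCA), CRE (TGACGTCA), STAT (TTCNNNGAA), RUNX (TGTGGTT), ETS (CCGGAAGT), forkhead (TGTTTAC), TCF/LEF (CTTTGAA) and KLF/SP (GGGCGG), none of which contains another. The Tgfbr3 region at +10.2 kb held the RUNX letters, the one at +125.4 kb the STAT letters, and those at +29.9 and +24.6 kb held none of the 10. At Smad3 +51.4 kb the AP-1 letters stood next to the summit, with the ETS letters further out. Ski +21.7 kb held the STAT letters, and Tgfbr2 +52.2 kb held those of RUNX and KLF/SP. Among the 59 regions of these genes called in all 4 libraries, the forkhead letters were in 6 (10.2%) and the TCF/LEF letters in 8 (13.6%), against 3.98% and 6.35% of all 38281 windows called in all 4. RUNX was in 9 (15.3%, against 10.1%), STAT in 5 (8.47%, against 8.76%), AP-1 in 7 (11.9%, against 10.7%), ETS in 2 (3.39%, against 3.40%), CRE in 1 (1.69%, against 1.65%) and KLF/SP in 15 (25.4%, against 27.9%). The GC-rich SMAD letters were in 8 (13.6%, against 9.82%), and all of these but Ski +71.9 kb cover a start site. The palindrome was in 0 of the 59 and in 0.306% of all windows. A match is a match of letters and does not show a bound factor.

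A peak is described here by its reads, by its fold enrichment over background, and by its percentile. Its reads are the number covering its summit, not scaled between libraries, whereas the fold enrichment is relative to each library's background. The percentile is the share of all peaks of that library with a lower −log10 p, ties taken at their middle rank. Libraries held 112569 to 142732 peaks, with a median of 8 to 10 reads at the summit. Between 27 and 37 peaks per library lay on chromosome Y, and the stated sex of the mice was not tested. A region without a peak in a library fell short of that library's calling threshold, where called peaks had as few as 5 or 6 reads, so absence of a peak is not absence of signal. The start sites of 8 of 8 markers of Treg and CD4 T cells, Foxp3, Cd4 and Ctla4 among them, had a peak in all 4 libraries. Those of 4 B cell, 4 myeloid and 3 NK cell markers had none in any library. Of the CD8 T cell markers Cd8a had no peak, whereas Cd8b1 had 16 and 20 reads in the WT and 11 and 11 in the mutant libraries. Of 4 stromal markers only Pecam1 had a peak, with 35, 66, 29 and 37 reads, and Pdgfra, Pdgfrb and Col1a1 had none. The part of Cd8b1+ or Pecam1+ cells in the results was not tested. In bulk samples fewer accessible cells and less access per cell cannot be told apart.

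All 8 genes were open at their start site in both genotypes, and most of their strongest other regions lay in introns. Of the 145 regions, 59 (40.7%) were called in all 4 libraries, against 14.1% of all regions and 19.1% of the 158384 regions within 20 kb of a protein-coding gene. A further 15 were called in 3 libraries, 28 in 2 and 43 in 1. Regions called once were weak, with a median of 8 reads, whereas those called in all 4 had a median of 23 and reached 153. By summit, 112 regions lay in introns, 19 upstream, 10 downstream and 4 in exons, and 41, 12, 3 and 3 of these were called in all 4.

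The loci differed widely in how many shared regions they held. Smad7 had 11 regions in all 4 libraries over a window of 68.4 kb, or 16.1 per 100 kb, percentile 98.8 of the 21938 protein-coding loci. Ski followed with 14 regions (12.9 per 100 kb, percentile 97.3), then Tgfbr2 with 11 (8.39 per 100 kb, percentile 90.3) and Smad3 with 12 (7.94 per 100 kb, percentile 89.1). Skil held 3 such regions and Tgfbr3 held 5, at percentiles 72.5 and 51.5. Smad2 held 2 and Tgfbr1 only its start-site region, which put them at percentiles 44.2 and 32.9, against a median locus of 2.16 per 100 kb. By this measure the inhibitor Smad7 and the corepressor Ski were the most densely open of the 8, and the kinase Tgfbr1 the least.

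**Figure D1:**
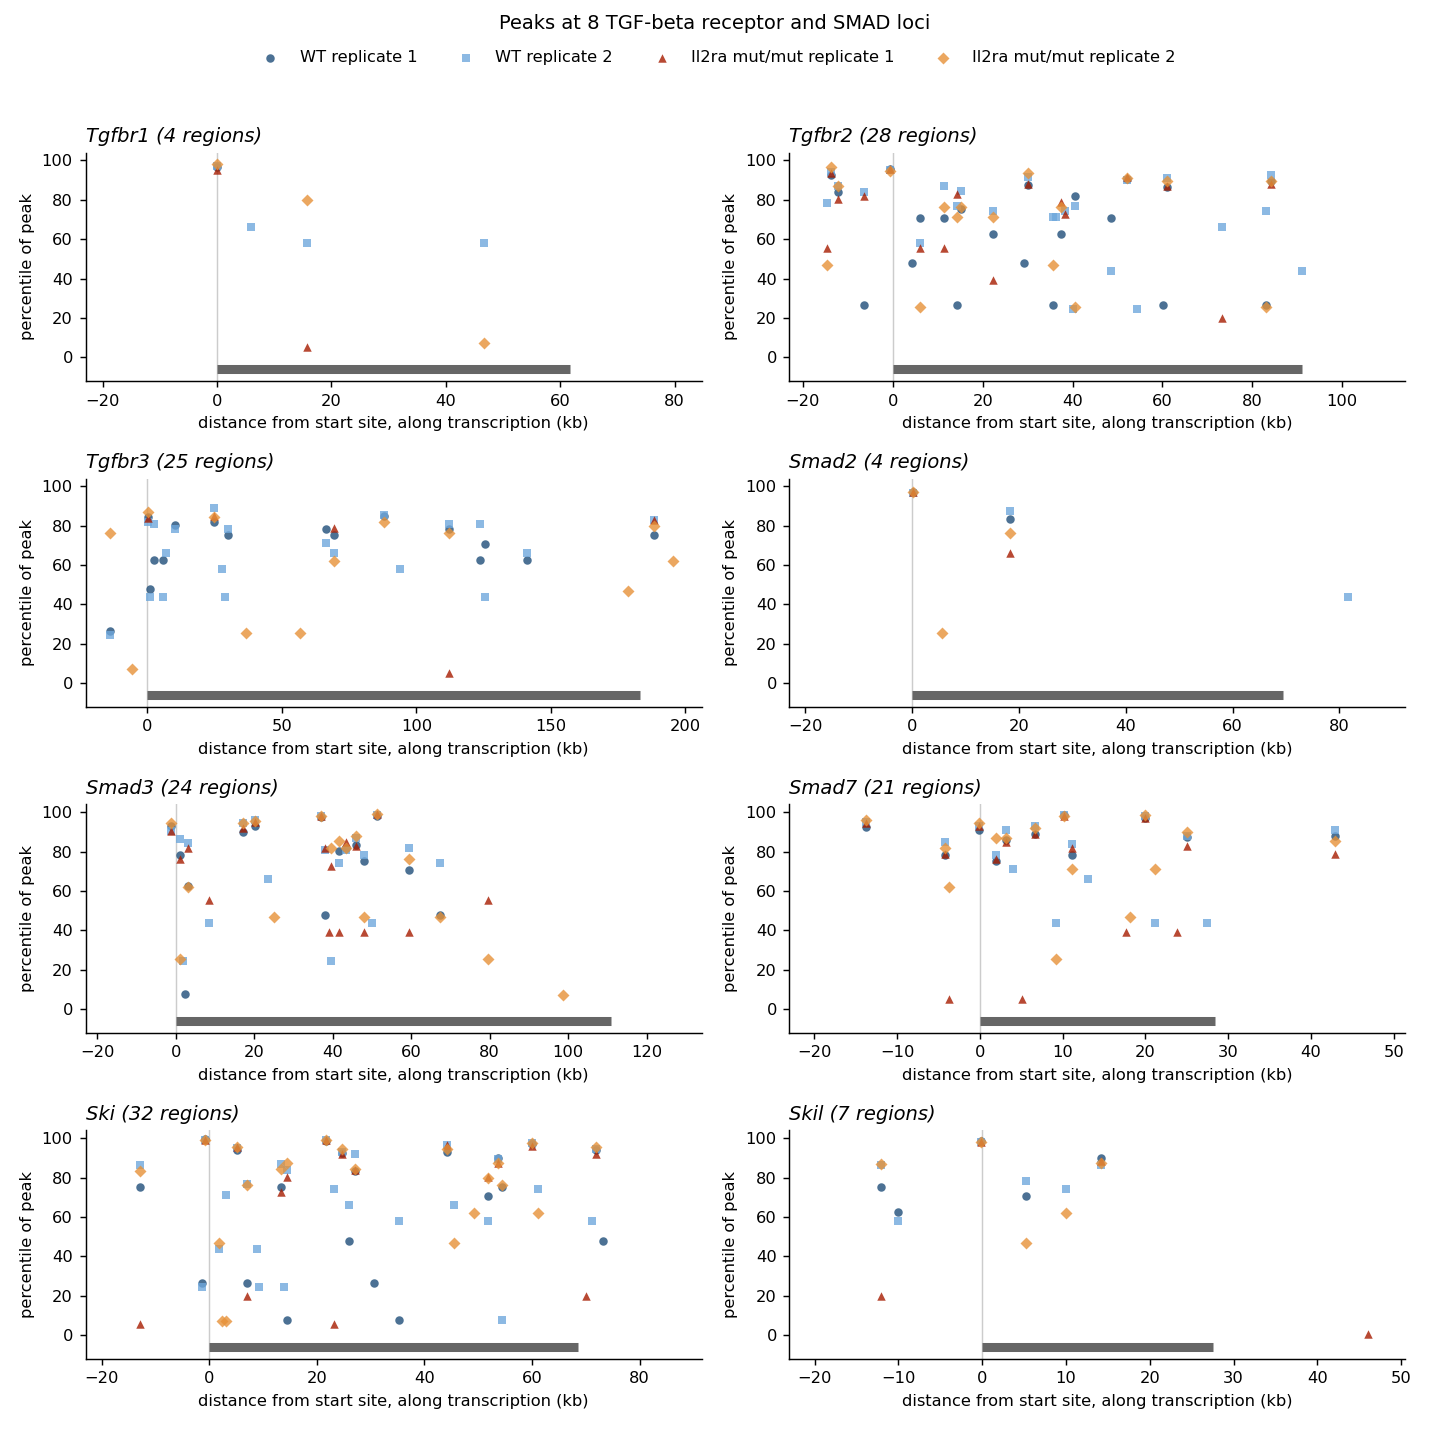
Percentile of the −log10 p of each peak within its library (vertical axis) against the distance of the region's summit from the start site in kb along transcription (horizontal axis), for the 8 loci and 4 libraries. Grey bars are gene bodies. Points of all 4 libraries coincide near the top at the start sites and at a few intronic regions of Smad3, Smad7 and Ski, whereas many Tgfbr3 regions carry blue WT points alone.

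The start sites did not separate the genotypes. The 10 regions that cover a start site of these genes were called in all 4 libraries, where 49.4% of protein-coding genes had such a region. The Ski start site (chr4:155221466-155223960) was the strongest, with 141 and 125 reads in the WT and 128 and 133 in the mutant libraries. Skil, at chr3:31093304-31096173, had 80 and 96 reads against 94 and 78. Both were above the 97th percentile of every library, and neither gene's genotypes stood apart.

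Tgfbr1 (chr4:47351328-47353782) had 54 and 82 reads at its start site in WT and 56 and 81 in mutant Treg cells. Tgfbr2 (chr9:116174098-116176272) had 48 and 58 against 58 and 41, and Smad2 (chr18:76240894-76242818) had 59 and 74 against 79 and 63. At these genes the replicates of a genotype differed by more than the genotypes did. Smad3 (chr9:63757531-63759733) had 35 and 34 reads against 31 and 41, and Smad7 (chr18:75366394-75368187, a region that also covers the start of Gm20544) had 28 and 46 against 41 and 41. The weakest 5′ start site was that of Tgfbr3 (chr5:107289010-107289770), with 16 and 17 against 18 and 18 reads and percentiles of 82.1 to 87.0. It lay below the lower quartile (89.7) of all protein-coding start sites called in all 4 libraries, whose median was 94.5. The percentiles overlapped between the genotypes at all 10 start-site regions, and log2 differences in fold enrichment ran from −0.47 at an internal start of Smad7 (+3.2 kb; SE 0.25) to 0.26 (+1.9 kb in the same gene; SE 0.28).

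**Figure D2:**
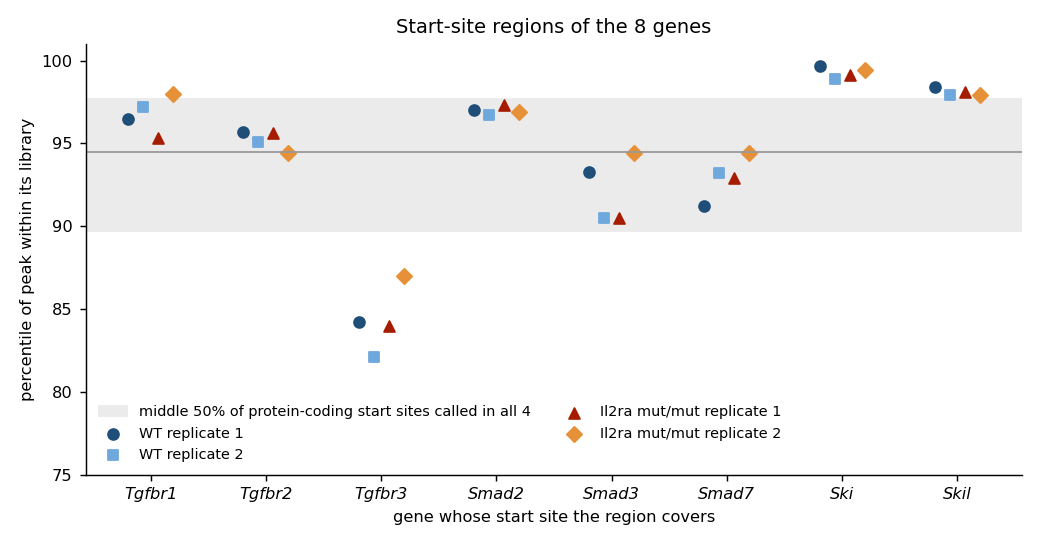
Percentile within its library (vertical axis, from 75) of the region over the 5′ start site of each gene (horizontal axis) in the 4 libraries. The grey band and line give the middle 50% and the median, 94.5, of the start sites of protein-coding genes called in all 4, and the Tgfbr3 points, between 82.1 and 87.0, lie below the band.

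The clearest contrast in calls between the genotypes was at Tgfbr3 (ENSMUSG00000029287, minus strand, chr5:107106570-107289629), away from its start site. WT libraries called 16 and 20 regions at this locus and Il2ra mut/mut libraries 5 and 12. Of its 25 regions, 9 were called in both WT libraries and in neither mutant library, and 0 in both mutant libraries and neither WT library. All 9 were intronic. Over all 8 genes 14 of 145 regions had the WT pattern, against 2.70% of all regions, and 2 had the reverse, against 3.56%. Regions here were called in all 4 libraries more often than in the genome (40.7% against 14.1%), so these shares have unlike bases.

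Of the regions called in both WT libraries, 13.1% in the whole genome had no peak in either mutant library, and at Tgfbr3 9 of 16 (56.2%) had none. At the other 7 genes this held for 5 of 68 (7.35%), and at all 8 loci for 14 of 84 (16.7%), close to the share of the genome. Of the regions called in both mutant libraries, 16.2% in the genome and 2 of 65 at the 8 loci (3.08%) had no WT peak. These were 0 of 5 at Tgfbr3 and 2 of 60 (3.33%) at the other 7 genes. Tgfbr3 was 1 of 78 protein-coding loci of 21938 (0.356%) with 9 or more regions of the WT pattern, of which the median locus had 0. It is a long gene, and among the 1116 genes at least as long 62 reached that number, again with a median of 0. Tgfbr3 was singled out among the 8 genes by this same count, so its rank describes the locus and is not a test. In the 500 kb on each side of the locus, a distance chosen after the values were seen, 40 regions were called in both WT libraries and 5 of these (12.5%) in neither mutant library. That share was close to the 13.1% of the whole genome. None of these shares was matched for peak strength. At the 8 loci, regions called in 2 libraries had a median of 9 reads and those called in all 4 a median of 23. Shared regions of Tgfbr3 had a median percentile of 80.2, the lowest of the 8 loci, against 82.8 for all regions called in all 4. The part of peak strength in the Tgfbr3 share was not tested. With 2 libraries per genotype an exact permutation test of any of these counts cannot give a p below 0.333.

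The 9 regions were of low to middling strength, with 8 to 16 reads and percentiles of 43.8 to 81.0 in the WT libraries. In intron 1, the region at +10.2 kb (chr5:107279340-107279656) had 13 and 14 reads, the one at +2.3 kb had 9 and 16, +5.8 kb had 9 and 8, and +1.1 kb had 8 and 8. In intron 2, +29.9 kb (chr5:107259491-107259970) had 11 and 14 and +66.3 kb had 12 and 11. In intron 4, +123.7 kb had 9 and 16 and +125.4 kb had 10 and 8, and in intron 6 +141.2 kb had 9 and 10. None of them had a peak in a mutant library, and at +10.2 and +29.9 kb the WT libraries were above the 75th percentile in both replicates. Among these 9 the TCF/LEF letters were in 3 windows (+2.3, +66.3 and +141.2 kb), the STAT letters in 2 (+1.1 and +125.4 kb) and RUNX in 1, and the other motifs in 0. Over all 145 regions TCF/LEF was in 9.66%, STAT in 12.4% and RUNX in 11.7%. The 9 were picked by their calls, and an excess of any motif was not tested.

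Other Tgfbr3 regions leaned the same way without the full pattern. At +112.2 kb (intron 4) all libraries had a peak, with 12 and 16 reads in WT and 7 and 11 in mutant Treg cells, a log2 difference of −0.69 (SE 0.30, limma unadjusted p = 0.0582, adjusted p = 0.590). At +87.8 kb (intron 3), WT libraries had 17 and 22 reads, the second mutant library 13, and the first no peak. Not every region of the gene differed. At +24.6 kb (intron 2) the libraries had 14 and 29 against 19 and 15 reads, at +69.5 kb 11 and 10 against 14 and 9, and at +188.3 kb, downstream of the gene, 11 and 18 against 17 and 12. The genotypes overlapped at these shared regions, and 5 further regions, at −5.8, +36.8, +56.6, +178.7 and +195.3 kb, were called only in the second mutant library, with 6 to 9 reads. Another 4, at +7.1, +27.9, +28.8 and +93.9 kb, were called only in the second WT library, with 8 to 10 reads, and −13.9 kb had 7 and 7 reads in WT and 11 in the second mutant library.

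**Figure D3:**
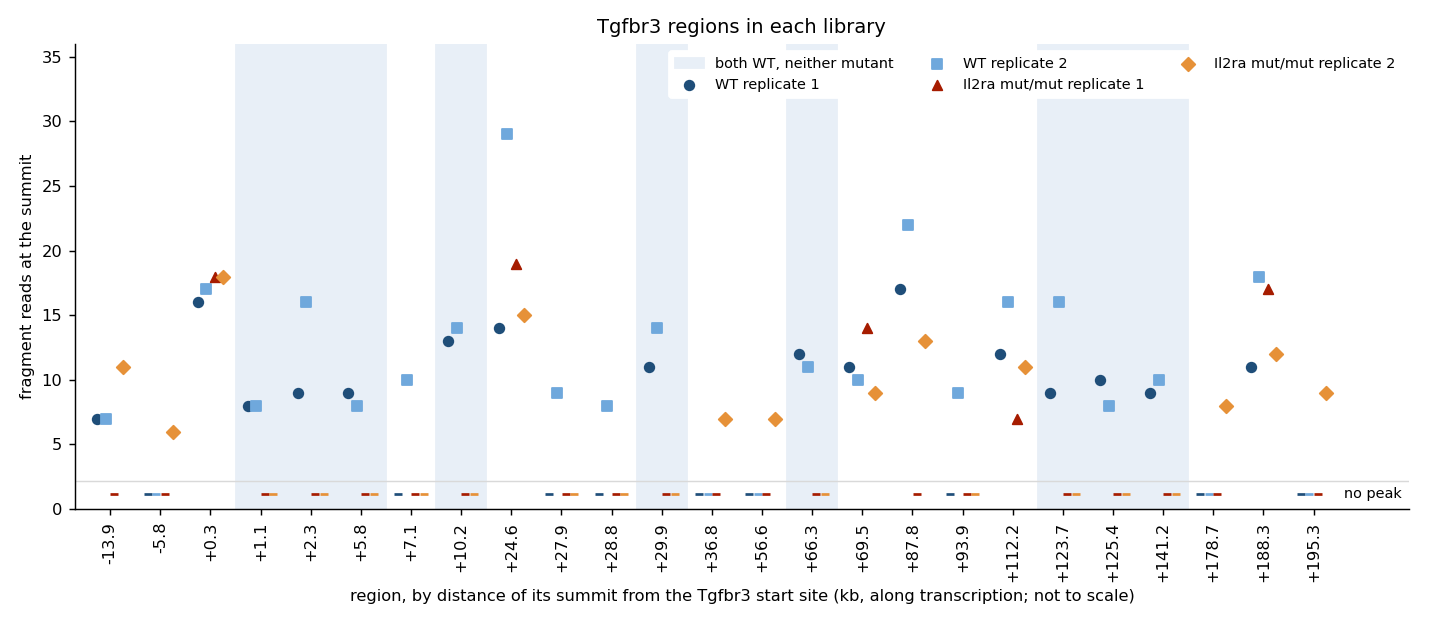
Reads at the summit (vertical axis) of the 25 Tgfbr3 regions in each library, ordered by distance from the start site in kb (horizontal axis, not to scale). Shaded columns are the 9 regions with a peak in both WT libraries and in neither mutant library, and dashes at the bottom mark libraries without a peak.

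At the signalling receptors only 1 region, at Tgfbr2, was called in both libraries of 1 genotype and in neither of the other. Tgfbr2 (ENSMUSG00000032440, chr9:116084293-116175360) held 28 regions, 11 of them in all 4 libraries. Its strongest region beyond the start site lay at −13.8 kb, over the start of Gm4668, with 33 and 52 reads in WT and 45 and 61 in mutant Treg cells. Within the gene, +52.2 kb (intron 3, chr9:116122649-116123540) had 26 and 33 against 36 and 27 reads, and +30.0 kb (intron 1) had 20 and 38 against 24 and 36. These differences were within the spread of the replicates, with log2 values of 0.05 (SE 0.21) and 0.06 (SE 0.28).

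Weaker Tgfbr2 regions differed in calls, in both directions. At +48.6 kb (intron 3) the WT libraries had 10 and 8 reads and the mutant libraries no peak. At +40.6 kb (intron 1) WT had 14 and 13 reads and the second mutant library 7, and at +15.1 kb WT had 11 and 20 and the second mutant library 11. Conversely, +37.5 kb had 14 and 11 reads in the mutant libraries and 9 in the first WT library. At +6.1 kb, where reads were 10 and 9 against 10 and 7, the percentiles of both mutant libraries (55.5 and 25.3) were below those of WT (70.7 and 58.0). Tgfbr1 (ENSMUSG00000007613, chr4:47353222-47414931) had only 3 further regions, at +6.0, +15.7 and +46.7 kb in introns 1 and 4, each with at most 12 reads and none called in both WT libraries.

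**Figure D4:**
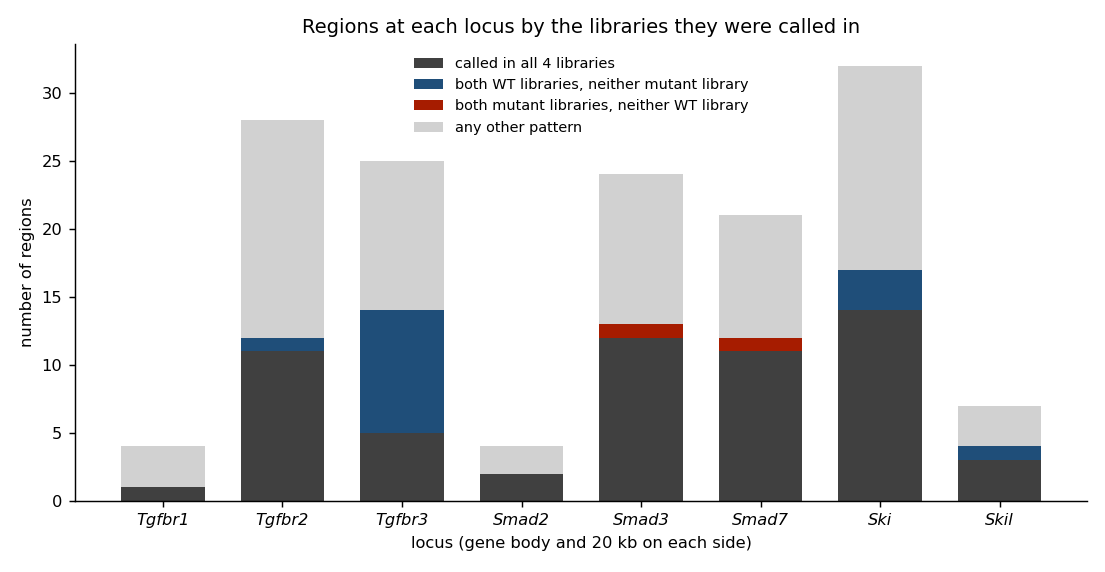
Number of regions at each locus (bars from 0) by the libraries they were called in. Tgfbr3 has 9 regions called in both WT libraries only and 5 called in all 4, whereas at the other loci regions called in all 4 outnumber those called in both libraries of 1 genotype only.

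Smad3 (ENSMUSG00000032402, chr9:63646767-63757994) carried in its long intron 1 some of the strongest open regions of the 8 genes. The region at +51.4 kb (chr9:63706218-63706882) had 78 and 124 reads in WT and 125 and 119 in mutant Treg cells, with fold enrichments of 40.0, 63.2, 56.5 and 58.3. Its percentiles were 98.3 and 98.9 against 99.1 and 99.2, above those of the gene's own start site, and both mutant libraries ranked it higher. The log2 difference was 0.19 (SE 0.11, limma adjusted p = 0.661). At +37.0 kb (chr9:63720588-63722346) reads were 65 and 101 against 95 and 86, a log2 difference of 0.05 (SE 0.12). Both estimates lay within 2 SE of 0.

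Smaller regions of the same intron differed among themselves. At +47.9 kb there were 11 and 14 reads in WT and 9 and 8 in mutant libraries (log2 −0.58, SE 0.20, limma unadjusted p = 0.0255, adjusted p = 0.582). At +1.2 kb reads were 12 and 23 against 13 and 7 (log2 −0.74, SE 0.32). At +59.5 kb they were 10 and 17 against 9 and 11 and at +41.7 kb 13 and 12 against 9 and 16, where the genotypes overlapped. At +43.3 and +46.0 kb the log2 differences were 0.02 (SE 0.27) and −0.07 (SE 0.25), and +39.6 kb leaned the other way, with 12 and 13 reads in the mutant libraries, 7 in the second WT library and no peak in the first. Only +79.7 kb was called in both mutant libraries, with 10 and 7 reads, and in neither WT library. Smad2 (ENSMUSG00000024563, chr18:76241580-76310963) held 4 regions. Its intronic region at +18.3 kb (chr18:76259519-76260062) had 15 and 26 reads in WT and 11 and 11 in mutant Treg cells, so the groups did not overlap. The log2 difference was −0.83 (SE 0.25, limma unadjusted p = 0.0137), and it did not pass adjustment (adjusted p = 0.582).

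Smad7 (ENSMUSG00000025880, chr18:75367529-75395935), which the pathway itself induces and which feeds back on the receptors, held shared regions from its upstream flank to beyond its end. The strongest were in intron 3. At +10.1 kb (chr18:75376886-75378299) reads were 93 and 116 in WT and 94 and 86 in mutant libraries, a log2 difference of −0.32 (SE 0.12, limma unadjusted p = 0.0367, adjusted p = 0.582). At +20 kb (chr18:75387122-75387940) they were 61 and 105 against 77 and 97, with a log2 difference near 0 (SE 0.17). The lowest unadjusted p of all 59 shared regions, 0.0101, was downstream of the gene at +42.9 kb (chr18:75410043-75410778), where reads were 21 and 36 against 14 and 16 and the log2 difference was −0.88 (SE 0.25, limma adjusted p = 0.582). Its fold enrichments were 11.1 and 18.7 in WT and 6.73 and 8.26 in mutant Treg cells. A weak region at −3.7 kb was called only in the mutant libraries, with 7 and 9 reads, and +11.1 kb had 12 and 19 against 16 and 10.

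Ski (ENSMUSG00000029050, chr4:155154075-155222592) had the most regions, 32, most of them in its intron 1. At +21.7 kb (chr4:155200506-155201933) reads were 88 and 153 in WT and 126 and 121 in mutant libraries, at the 98.7 to 99.4th percentiles, a log2 difference of −0.04 (SE 0.13). At +60.0 kb (chr4:155162265-155163164) they were 60 and 94 against 65 and 71 (log2 −0.24, SE 0.14). The genotypes overlapped in percentile at both, and +21.7 kb had fewer reads than the start site in all libraries but WT replicate 2.

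Among the weaker Ski regions both directions occurred. Called in both WT libraries only were +35.3 kb (6 and 9 reads), +26.0 kb (8 and 10) and −1.4 kb (7 and 7). At +51.8 kb both mutant libraries were higher, with 15 and 12 reads against 10 and 9 (log2 0.37, SE 0.24). They also ranked +5.1 kb higher, at percentiles of 95.7 and 95.8 against 94.2 and 95.1, although its reads overlapped (59 and 51 against 39 and 58). At +14.5 kb the libraries had 6 and 19 reads in WT and 15 and 19 in mutant Treg cells, which gave the highest log2 difference of the 59 shared regions, 0.63 (SE 0.43), within the spread of the WT libraries. At −12.8 kb reads were 11 and 23 against 7 and 14, and at +13.3 kb 11 and 24 against 12 and 15. Skil (ENSMUSG00000027660, chr3:31095058-31122577) had 7 regions. Its intronic region at +14.2 kb had 25 and 23 against 25 and 19 reads, and the upstream region at −12.1 kb had 11 and 23 against 8 and 18. At −10 kb WT libraries had 9 and 9 reads and mutant libraries no peak, and at +5.2 kb (intron 2) WT had 10 and 14 and the second mutant library 8.

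Graded signal was then compared over the 38426 regions called in all 4 libraries, by limma on quantile-normalised log2 fold enrichment. The test called 0 of the 59 regions at these genes and 0% of all regions at an adjusted p of 0.05, the lowest adjusted p being 0.582. With median centring in place of quantile normalisation it called 318 regions, and 0 at these genes. At an unadjusted p below 0.05 there were 4 of the 59, Smad2 +18.3 kb, Smad3 +47.9 kb, Smad7 +10.1 kb and Smad7 +42.9 kb, against 8.55% (3285) of all regions, and all 4 were lower in the mutant. The median log2 difference, mutant minus WT, was −0.14 over the 59 and 0.00 over all regions, and 42 of the 59 (71.2%) were below 0, against 49.4%. By gene the median was −0.09 at Tgfbr1, −0.21 at Tgfbr2, −0.03 at Tgfbr3, −0.42 at Smad2, −0.04 at Smad3, −0.25 at Smad7, −0.10 at Ski and −0.17 at Skil. Start-site regions had a median of −0.05 and the 49 others −0.21. The SE of a region had a median of 0.25, and the median difference over the 59 was not tested.

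**Figure D5:**
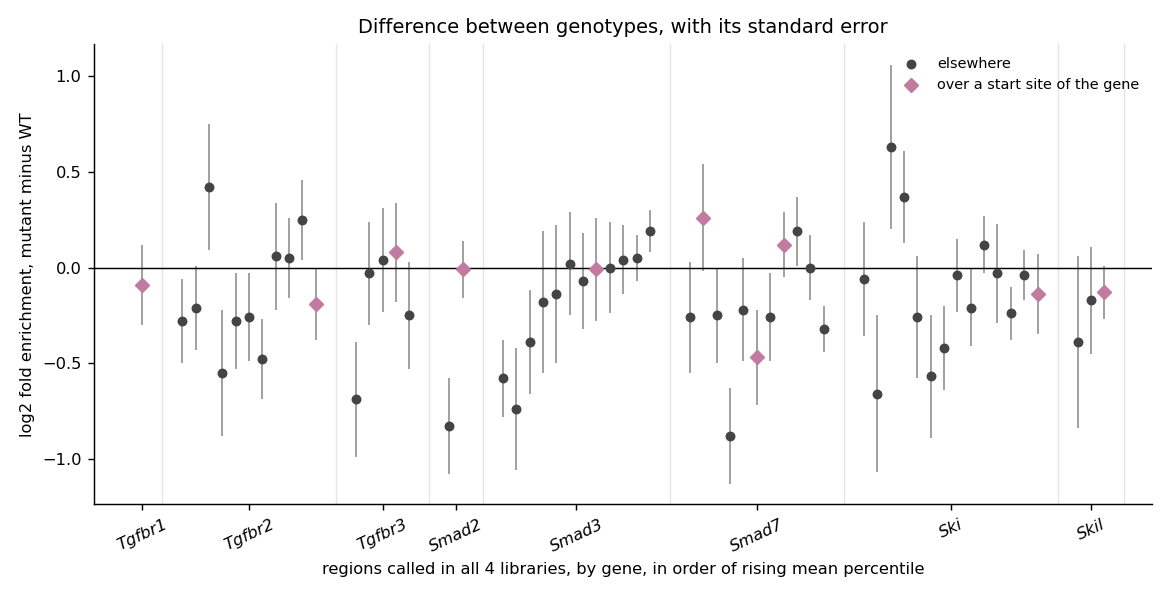
Log2 difference in fold enrichment, mutant minus WT (vertical axis), of the 59 regions called in all 4 libraries, by gene and in order of rising mean percentile (horizontal axis). Points are limma estimates, bars 1 standard error, and diamonds regions over a start site of the gene; values run from −0.88 to 0.63 and 42 of 59 lie below 0.

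Ranked within their libraries, 5 of the 59 regions were higher in both mutant than in both WT libraries and 9 were lower, with 45 overlapping. In the genome 26.2% were higher and 12.6% lower, so that regions that ranked higher in the mutant were fewer here (8.47%) than in the genome, and those lower (15.3%) about as many. A percentile also depends on how many weak peaks a library's list holds. On quantile-normalised fold enrichment 49.4% of all regions were below 0, and the part of list length in the ranks was not tested. The 5 were Tgfbr2 +52.2 kb, Smad3 +51.4 and +37.0 kb, and Ski +51.8 and +5.1 kb. The 9 were Tgfbr2 +84.1 and +6.1 kb, Tgfbr3 +112.2 kb, Smad2 +18.3 kb, Smad3 +47.9 and +1.2 kb, Smad7 +10.1 and +42.9 kb, and Ski +53.6 kb.

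Open chromatin regions (OCRs) reproducible in both replicates of a genotype were called by the irreproducible discovery rate (IDR) at 0.05, and an OCR of one genotype that overlapped none of the other was unique. The 8 loci held 59 OCRs, of which 40 were common, 16 unique to WT and 3 unique to the mutant, where 14.4% and 13.7% of the genome's 29229 OCRs were unique to WT and to the mutant. A unique OCR can still have peaks in the other genotype that did not pass IDR. WT-unique OCRs were found at Tgfbr3 (4), Smad3 (4), Tgfbr2 (2), Ski (2), Skil (2), Smad2 (1) and Smad7 (1). The mutant-unique ones were Tgfbr2 +37.5 kb and Ski +51.8 and +14.5 kb. At Tgfbr3, +10.2 and +29.9 kb were WT-unique with no mutant peak at all, and +87.8 and +112.2 kb were WT-unique with weaker mutant peaks. The number of unique OCRs depended on the settings: there were 8 at an IDR threshold of 0.01, 10 with only peaks of −log10 q of at least 3, and 31 without IDR.

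Beyond these 8 genes, start sites of the pathway were examined in the same way. Of 60 further genes of TGF-β and BMP signalling and its targets, 42 had a peak over a start site in all 4 libraries, where 49.4% of protein-coding genes had one, 7 had it in 1 to 3 and 11 in none. Of 8 ligand genes 5 were open, Tgfb1 among them with 26 and 33 reads in WT and 23 and 23 in mutant Treg cells. Of 8 genes of ligand activation 6 were open, with Lrrc32 (GARP, which displays latent TGF-β on Treg cells) at 16 and 30 against 25 and 28 reads and Itgb8, the integrin chain that frees it, at 30 and 37 against 42 and 43. The counts were 6 of 10 for other receptors, 3 of 5 for other SMADs, 14 of 17 for regulators and 8 of 12 for target genes. Smad4, the shared partner, had 40 and 53 against 49 and 54 reads, whereas Smad6 was called in 3 libraries with 8 or 9 reads and Smad9 in none. Both mutant libraries ranked above both WT libraries at 14 of the 42 and below them at 4, and 0 passed the limma test. Of all regions called in all 4 libraries, 26.2% and 12.6% did so. The bases are unlike, since protein-coding start sites called in all 4 had a median percentile of 94.5 and all such regions 82.8. No share for start sites alone was computed. Of the 42, only Usp15 and Cdkn2b had a limma unadjusted p below 0.05. Usp15, a deubiquitinase of the receptor complex, had 25 and 34 against 52 and 44 reads (log2 0.65, SE 0.17, limma adjusted p = 0.582). The target Cdkn2b, a cell cycle inhibitor, had 20 and 24 against 32 and 35 reads (log2 0.54, SE 0.21, limma adjusted p = 0.582). Il2ra itself, whose product the mutation alters, had 41 and 58 reads at its start site in WT and 29 and 27 in mutant libraries. Its log2 difference was −0.83 (SE 0.17, limma unadjusted p = 0.00191, adjusted p = 0.582). The start sites of the markers Cd8b1 and Pecam1 were also lower in the mutant, with log2 differences of −0.71 and −0.61. Their limma unadjusted p was 0.0237 and 0.0326, and their adjusted p 0.582.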

How the data were processed

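LN Treg cells of 2 WT and 2 Il2ra mut/mut mice were profiled by ATAC-seq, with 2 libraries per genotype. The authors aligned reads to mm10 (BWA mem), discarded duplicates, mitochondrial reads and discordant pairs, and ran MACS2 on the shifted reads of each library; the submitters' processing notes name BWA 0.7.13, SAMtools 0.1.19, Picard 1.92, Trim Galore 0.3.7 and MACS2 2.1.0. The deposited lists give each peak's position and summit, a linear fold enrichment (ratio) over background, p and q values as −log10, and a score that equalled 10 times −log10 q in 100% of peaks. The lists hold no library totals, so total depth is unknown. A fold enrichment was (reads + 1)/(background + 1), with a background of 0.974 to 1.23 reads per library, which gave whole reads within 0.02 for 100% of peaks. The weakest peak of each library had a −log10 q of 1.40 and 1.47 (WT) and 1.70 and 1.30 (mutant).

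Peaks were merged at an overlap of 1 bp, and each library's value in a region was that of its peak with the highest −log10 p. Summits were placed in GENCODE vM21 basic gene models. Regions called in all 4 libraries were tested by limma (3.58.1, R 4.3.3) on log2 fold enrichment after quantile normalisation, with a mean-variance trend, genotype as the term and Benjamini-Hochberg adjustment over all 38426. IDR was fitted as a Gaussian copula mixture (Python 3.11.15, numpy 2.4.6, scipy 1.17.1) to the ranks of −log10 p. The code was tested on simulated data. Alternatives were stricter peaks, 50% overlap, other flanks, scalings, measures and IDR settings, a replicate block, and leaving out each library. Regions given in full were start sites, the 2 highest others per gene, regions called in both libraries of 1 genotype only, unique OCRs, and up to 6 with non-overlapping percentiles in each direction. The genes, lists and motifs were chosen with earlier results of these data known. Nothing says that libraries were prepared on separate days, so p-values measure the spread between these mice and libraries.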

Additional observations from a re-analysis of the deposited data

How the results depend on the processing

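No region at the 8 genes passed the limma test under any alternative run. Over the genome the test called 318 regions with median centring in place of quantile normalisation (142 higher and 176 lower in the mutant), 1 with only peaks of −log10 q of at least 3, and 0 under the others, the replicate block included. Same-numbered libraries shared only a number: their deviations from the genotype means correlated at 0.0109 over 38426 regions, and the replicate block gave 0 calls in all. Unique OCRs at the 8 loci went from 19 to 10 with −log10 q of at least 3, to 8 at an IDR threshold of 0.01 and to 31 with no IDR step. Leaving out 1 library gave 14 to 23. IDR could not be run on the genotype left with 1 library. Its strongest peaks, as many as its OCRs in the main run, stood in for them. Regions at Tgfbr3 called in both WT libraries and neither mutant library stayed at 9 with only peaks of −log10 q of at least 3. The same lowest −log10 q (1.70) in every list, 112569 peaks per library, 50% overlap and smaller flanks also gave 9. Smaller flanks could not change this count, because all 9 regions are intronic. The common −log10 q and the equal lists drop only the weakest peaks, and the WT peaks of the 9 were at percentile 43.8 or above. Under those settings the count could hardly fall, so neither they nor the flanks test the result. All these settings were chosen after seeing the data. With 1 library left out the count was 9 to 13, but the pattern then rests on the 1 remaining library of that genotype. That condition is looser, so the count could hardly fall, and this range does not test the result. At all 8 loci the count was 12 to 15 with all 4 libraries. Under the looser condition, with 1 library left out, it was 16 to 35, 35 without WT replicate 1 and 23 without Il2ra mut/mut replicate 2. Counts in the opposite direction without Il2ra mut/mut replicate 1 were 5 at Tgfbr3 and 13 at the 8 loci. Of 301 log2 differences recomputed for the 34 named shared regions, 35 changed sign, none of them past the threshold. With a median of 8 to 10 reads per peak, differences at weak regions are near the limit of detection.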
